A study of Mus musculus with 4 samples.

Results

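The Reg genes encode small secreted C-type lectins, and the 7 members measured here were Reg1, Reg2, Reg3a, Reg3b, Reg3d, Reg3g and Reg4. They were taken by gene symbol from the 55291 symbols counted in RNA sequencing of mouse pancreas. All 7 were in the files, and 6 of them passed the filter on low counts that left 19134 genes for testing. Reg4 did not pass. The study compared pancreas of Pdx1-Cre+, poh1f/+ mice, the control group, with pancreas of Pdx1-Cre+, poh1f/f mice, the knockout group, with 2 libraries in each. All mice therefore carried Pdx1-Cre, a recombinase driven by the Pdx1 promoter in the embryonic pancreas, whose cells give rise to the acinar, duct and islet lineages, and the controls also carried a floxed copy of poh1. Poh1, now named Psmd14, is the deubiquitinase of the proteasome lid. The labels give neither the age of the mice nor whether the libraries of a group are from different animals. The p-values below therefore cover the spread among these libraries, which may be technical.

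Reg1 and Reg2 are secreted by acinar cells, Reg1 being the pancreatic stone protein or lithostathine. Reg3b, first described as pancreatitis-associated protein, and Reg3g are antibacterial lectins of the small intestine and are also induced in acinar cells during pancreatitis. Reg3a and Reg3d are closely related to them, Reg3d being known as an islet neogenesis-associated protein, and Reg4 is expressed mainly in the gut by enteroendocrine and goblet cells. Interleukin 22 and interleukin 6, which signal through STAT3, are known inducers of Reg3 genes in epithelium.

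All of the genes except Reg4 lie side by side on chromosome 6 (GRCm38, 78370657 to 78468872, a span of 98.2 kb in GENCODE M21) in the order Reg3b, Reg3d, Reg3a, Reg2, Reg1 and Reg3g. Reg3d and Reg3g are on the minus strand and the other 4 on the plus strand. Reg4 is on chromosome 3 (98222156 to 98236748, plus strand). No other annotated gene overlapped any of the 7, and no exact stretch of 50 bases occurred in transcripts of more than 1 member, so a read of that length or longer without mismatches could match the transcripts of 1 member only. Within 500 kb of the cluster the annotation holds 1 other protein-coding gene, Ctnna2, an alpha-catenin of neurons, which had 18 and 63 counts in controls and 8 and 98 in the knockout-labelled libraries. The remaining 7 neighbours, pseudogenes and noncoding genes, had at most 2 counts in any library.

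The DNA before 4 of the start sites is shown because these genes form the pairs described below: Reg1 and Reg2 were low in both knockout-labelled libraries, and Reg3b and Reg3g parted from each other in 1 of them. Each sequence is the 250 bases before the RefSeq start (GRCm38.p6), read 5′ to 3′ on the gene's own strand. GENCODE M21 places the starts of Reg1, Reg2 and Reg3b farther upstream. Capitals mark matches on either strand to TATAAA, the TATA box, or to TTCNNNGAA, the palindromic motif of STAT factors.
Reg1, chr6:78425733-78425982, plus strand: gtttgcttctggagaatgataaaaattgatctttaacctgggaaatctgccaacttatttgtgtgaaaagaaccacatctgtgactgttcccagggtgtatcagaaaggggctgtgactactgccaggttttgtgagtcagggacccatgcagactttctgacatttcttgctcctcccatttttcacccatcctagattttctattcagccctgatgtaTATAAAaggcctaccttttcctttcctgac
Reg2, chr6:78404905-78405154, plus strand: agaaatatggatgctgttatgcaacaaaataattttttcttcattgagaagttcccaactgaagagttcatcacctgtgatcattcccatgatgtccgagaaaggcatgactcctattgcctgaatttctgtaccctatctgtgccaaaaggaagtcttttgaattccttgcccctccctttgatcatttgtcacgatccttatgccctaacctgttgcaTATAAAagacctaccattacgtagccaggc
Reg3b, chr6:78370635-78370884, plus strand: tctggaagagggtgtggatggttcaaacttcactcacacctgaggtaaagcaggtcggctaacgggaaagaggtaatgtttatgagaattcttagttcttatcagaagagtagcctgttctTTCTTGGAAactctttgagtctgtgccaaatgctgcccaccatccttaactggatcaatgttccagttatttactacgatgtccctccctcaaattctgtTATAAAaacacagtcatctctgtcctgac
Reg3g, chr6:78468875-78469124, minus strand: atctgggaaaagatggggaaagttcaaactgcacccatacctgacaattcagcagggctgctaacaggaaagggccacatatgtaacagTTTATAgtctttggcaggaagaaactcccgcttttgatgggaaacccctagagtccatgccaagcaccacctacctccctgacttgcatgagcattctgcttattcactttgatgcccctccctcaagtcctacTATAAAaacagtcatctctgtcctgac

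Each of these 4 has a TATAAA on its own strand that begins 27 to 30 bases before the start. Among 32851 mouse start sites, 12.4% hold the motif in the same window, and of the 7 members only these 4 do. The STAT motif is in Reg3b (bases 129 to 121 before the start) and Reg3d (238 to 230), against 7.02% of all start sites. Reg3g has no match in this window. TGGGAA, the core motif of RBPJ, a subunit of the acinar factor PTF1, matched in 5 members, Reg1, Reg2, Reg3a, Reg3d and Reg3g, against 21.6% of all start sites. Its match at base 238 in Reg3d overlaps the STAT match there. Reg3b and Reg3g were the most similar pair of the 21, with 68.9% identical columns in a global alignment and a shared run of 20 bases that ends at the start (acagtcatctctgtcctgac). Reg1 and Reg2 came next with 59.3%.

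Total counts were 22875618 to 27849730 per library, and 1 count was worth 0.0342 to 0.0455 CPM, the read count relative to a library total scaled by TMM (trimmed mean of M values). Psmd14, the targeted gene, showed no fall in RNA, at 61.6 and 52.9 CPM in controls and 65.9 and 65.2 CPM in the knockout-labelled libraries (log2 fold change 0.20 ± 0.11 SE, edgeR adjusted p = 0.259). Which part of the gene is floxed is not given in the labels, and every direction below is between labels. Knockout replicate 2 stood apart by RNA of intestinal genes. All 25 genes of an enterocyte list were highest there, and 4 of them (Alpi, Sis, Cdx2 and Treh) had no count in any other library. Control replicate 1 stood apart by its pancreatic RNA, with 25 acinar enzymes and granule proteins all highest there, at a summed 19904 CPM where control replicate 2 had 3943 CPM. As a check of the labelled tissue, these enzymes took 1.91%, 0.383%, 0.02997% and 0.113% of all counts in control replicates 1 and 2 and knockout replicates 1 and 2. The 7 Reg genes took 0.355%, 0.0972%, 0.0157% and 0.128%. In every library the enzyme sum was below that of 8 fibroblast genes, which was 26122 and 30123 CPM in control replicates 1 and 2. Whether the controls held a normal share of acinar RNA was not tested. Member results that rest on control replicate 1 or knockout replicate 2 are given with and without that library. A gene is said to have risen or fallen where edgeR's quasi-likelihood test gave a Benjamini-Hochberg adjusted p under 0.05 over all tested genes.

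Reg1 and Reg2, the acinar lectins, fell in the knockout-labelled libraries, and they were the 2 members that passed the test. Over all genes tested, 22.1% passed it, 9.95% as lower and 12.1% as higher. (With library totals only, 64.9% of all calls were higher, against 54.9% here.) Reg1 was at 1765 and 513 CPM in control replicates 1 and 2, and at 84.8 and 191 CPM in knockout replicates 1 and 2. The groups did not overlap, although the control libraries differed by 3.44 times between themselves. The means were 1139 ± 885 and 138 ± 75.4 CPM (SD, n = 2), a log2 fold change of −3.04 ± 0.71 SE (edgeR adjusted p = 0.0397).

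Reg2 lay in the same order of libraries with a wider gap. It was at 667 and 148 CPM in control replicates 1 and 2 and at 9.89 and 26.6 CPM in knockout replicates 1 and 2. The means were 407 ± 367 and 18.2 ± 11.8 CPM (SD, n = 2), and the log2 fold change was −4.48 ± 0.91 SE (edgeR adjusted p = 0.0278). Bulk RNA cannot tell fewer acinar cells from less Reg RNA in each cell. Without control replicate 1 neither gene passed (Reg1 −1.89, edgeR adjusted p = 0.137, and Reg2 −3.01, 0.0923). Reg1 also missed the threshold in the fit with a replicate block (edgeR adjusted p = 0.06099) and with a filter of 1 CPM on average (0.0504).

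Reg3d and Reg3a, the smaller members of the cluster, also had lower TMM-scaled CPM in both knockout-labelled libraries than in either control, without passing the test. Reg3d was at 61.4 and 9.71 CPM in controls and at 0.788 and 3.56 CPM in knockout replicates 1 and 2. Its log2 fold change was −4.02 ± 1.12 SE (edgeR adjusted p = 0.0595), and DESeq2 called it lower (adjusted p = 0.0218). The control replicates were 6.33 times apart, the widest gap between controls of the 6 tested members.

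Reg3a was at 113 and 20.0 CPM in controls and at 1.29 and 19.6 CPM in knockout replicates 1 and 2. Knockout replicate 2 thus came close to control replicate 2, and the log2 fold change of −2.67 had an interval from −6.06 to 0.73 (95%, edgeR adjusted p = 0.207). In all, 4 of the 6 tested members had both knockout-labelled libraries below both controls in TMM-scaled CPM, and over all tested genes that share was 33.7%. No tested member had both above both controls, where the share was 34.4%. For Reg3a this order rested on the scaling. It had 573 of 27766657 counts over tested genes in knockout replicate 2 and 477 of 24613495 in control replicate 2, a larger share in knockout replicate 2.

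Reg3b and Reg3g, the antibacterial lectins, differed more between the knockout-labelled libraries than between the groups. Reg3b was at 979 and 280.0 CPM in controls, at 51.9 CPM in knockout replicate 1 and at 600.0 CPM in knockout replicate 2. The lowest and the second highest value were thus both labelled knockout, and the groups overlapped. The means were 629.5 ± 494 and 326 ± 388 CPM (SD, n = 2), and the log2 fold change of −0.95 had an interval from −3.88 to 1.98 (95%, edgeR adjusted p = 0.587).

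Reg3g was at 112 and 30.4 CPM in controls, at 6.16 CPM in knockout replicate 1 and at 374 CPM in knockout replicate 2. Here the lowest and the highest of the 4 libraries were both labelled knockout. The means were 71.1 ± 57.5 and 190.3 ± 260.4 CPM (SD, n = 2), with a log2 fold change of 1.42 and an interval from −2.69 to 5.53 (95%, edgeR adjusted p = 0.561). The sign of this value was negative with limma-voom (−0.25) and with the replicate number as a block (−0.19). It rested on knockout replicate 2, without which Reg3g was lower by the same test (−3.53, edgeR adjusted p = 0.000116).

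Reg4, the gut member outside the cluster, had 0 and 6 counts in control replicates 1 and 2, 0 in knockout replicate 1 and 77 in knockout replicate 2. This was 0.251 CPM in control replicate 2 and 2.64 CPM in knockout replicate 2. A count of 0 allowed up to 0.136 CPM in control replicate 1 and 0.107 CPM in knockout replicate 1, a limit of 3 counts that covers counting error only. Knockout replicate 2 was thus at least 24.5-fold higher than that limit in knockout replicate 1.

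**Figure D1:**
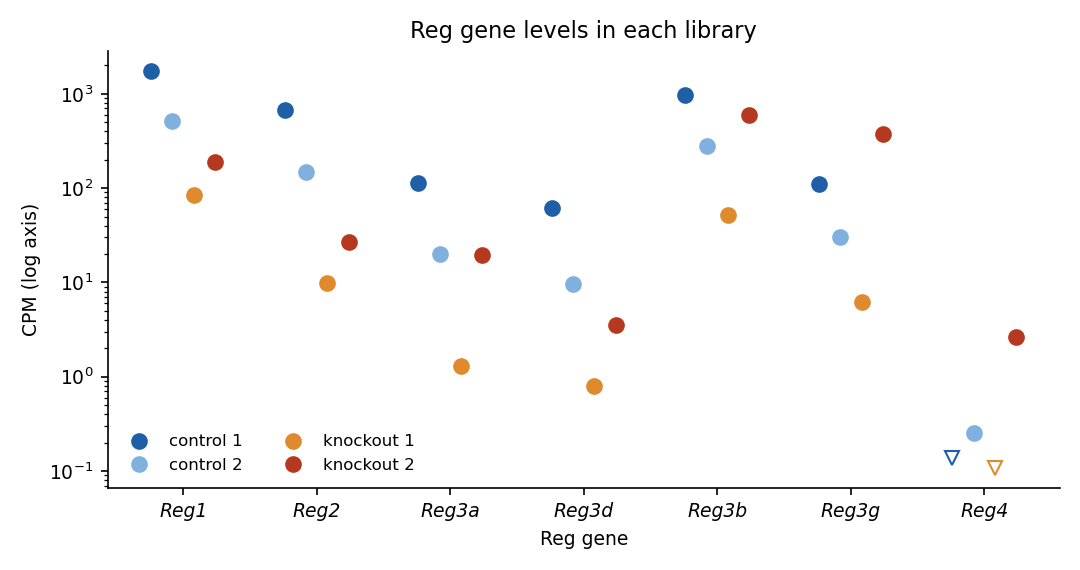
CPM of the 7 Reg genes (log axis) in each of the 4 libraries, 1 point per library, where open triangles mark the limit of 3 counts for libraries with no Reg4 count. Reg1, Reg2, Reg3a and Reg3d have both knockout points below both control points, which for Reg3a rests on the TMM scaling. Knockout replicate 2 is second highest for Reg3b and highest for Reg3g (374 CPM) and Reg4.

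Which way the members differed depended on which library labelled knockout was in the fit. Without knockout replicate 2, all 6 tested members were lower, by −3.53 (Reg3g) to −5.68 (Reg3a) on the log2 scale, where 7.65% of all tested genes were lower. Without knockout replicate 1, the log2 fold changes were −2.58 for Reg1, −3.94 for Reg2, −1.77 for Reg3a and −3.32 for Reg3d. Those of Reg3b, Reg3g and Reg4 were −0.07, 2.39 and 4.29. Reg4 passed the low-count filter in that fit only through knockout replicate 2, the library where it was high, so its value there is no test. Each of these fits compares 1 library with 2 and assumes that the lone library varies like the other group. Without control replicate 1, 0 of 7 members passed and 2 had an unadjusted p under 0.05, among 5.52% of all genes that passed.

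**Figure D2:**
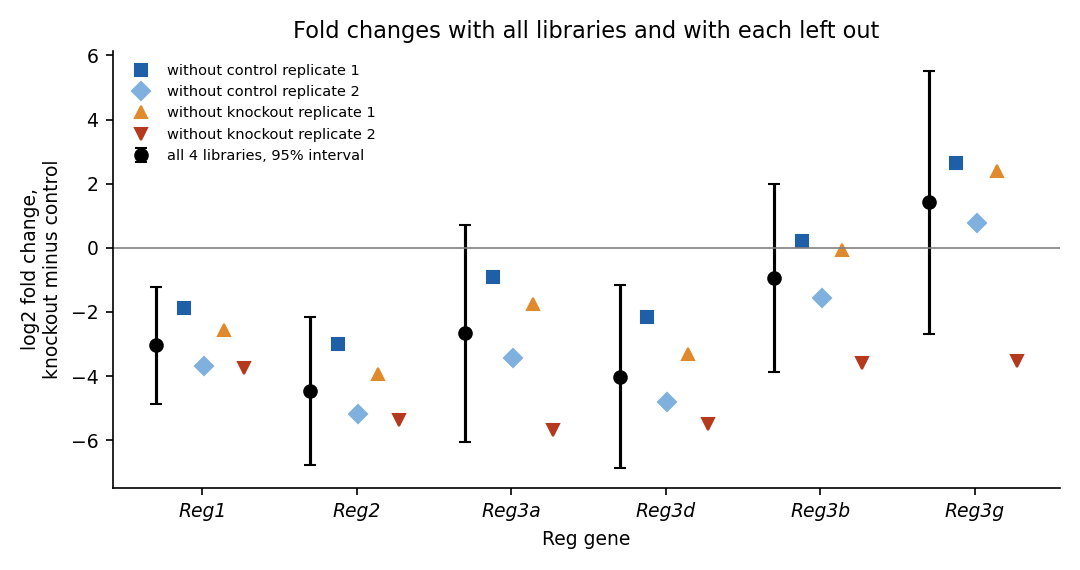
Log2 fold change (knockout minus control) of the 6 tested Reg genes with all 4 libraries (black points, bars are 95% intervals) and with each library left out in turn (coloured symbols, no bars). Reg1, Reg2, Reg3a and Reg3d stay below 0 in every fit drawn, while Reg3g lies between −3.53 without knockout replicate 2 and 2.65 without control replicate 1.

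Scaled per kilobase of the longest coding transcript, the 6 cluster members had the same order of levels in 3 of the 4 libraries. In control replicates 1 and 2 and in knockout replicate 1 the order was Reg1, Reg3b, Reg2, Reg3g, Reg3a and Reg3d. In CPM per kb the control means were 1260 ± 979 for Reg1, 804 ± 631 for Reg3b, 584 ± 526 for Reg2, 92.2 ± 74.6 for Reg3g, 80.7 ± 79.9 for Reg3a and 45.5 ± 46.7 for Reg3d (SD, n = 2). Between the controls only the step from Reg2 to Reg3g exceeded the spread, since the lower Reg2 value (212 CPM per kb) was above the higher Reg3g value (145 CPM per kb). In knockout replicate 2 the order was Reg3b (766 CPM per kb), Reg3g (486), Reg1 (212), Reg2 (38.1), Reg3a (23.8), Reg3d (4.55) and Reg4 (2.58).

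The make-up of the family's reads showed the same split. Reg1 held 47.7% and 51.2% of all Reg reads in control replicates 1 and 2 and 54.8% in knockout replicate 1, but 15.7% in knockout replicate 2. Reg3g held 3.02%, 3.04% and 3.98% in the former 3 libraries and 30.7% in knockout replicate 2. Of the reads of the pancreatic pair Reg1 and Reg2 and the gut-expressed Reg3b, Reg3g and Reg4 together, the gut-expressed genes took 31.0%, 32.0% and 38.0% in the former 3 libraries and 81.8% in knockout replicate 2 (exact 95% interval 81.3 to 82.2%, counting error only).

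**Figure D3:**
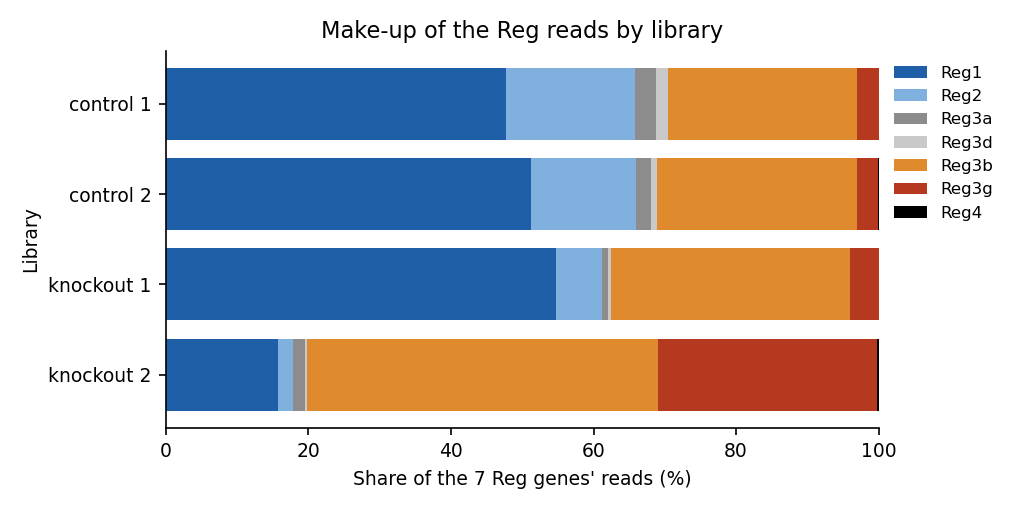
Share of the reads of the 7 Reg genes taken by each gene (percent, stacked to 100) in each library. Control replicates 1 and 2 and knockout replicate 1 are led by Reg1 (47.7 to 54.8%), and knockout replicate 2 is led by Reg3b (49.3%) and Reg3g (30.7%).

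As sums, Reg1 and Reg2 were at 2432 and 661 CPM in controls and at 94.7 and 218 CPM in the knockout-labelled libraries, groups that did not overlap. The log2 ratio of the group means was −3.31. Reg3b, Reg3g and Reg4 summed to 1091 and 311 CPM in controls and to 58.1 and 977 CPM in the knockout-labelled libraries, and these groups overlapped. Their log2 ratio of −0.44 was 0.74 without control replicate 1, 0.48 without knockout replicate 1 and −3.59 without knockout replicate 2. With 2 libraries against 2, an exact two-sided permutation test cannot give a p below 0.333, so these sums were not tested.

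Ratios between members within a library, which do not depend on scaling, separated these patterns further; they were chosen after the values were seen and carry no test. There were 11.4, 10.9 and 11.9 Reg3g reads per 100 Reg3b reads in control replicates 1 and 2 and knockout replicate 1, whose intervals overlapped (exact 95%, from 10.0 to 13.9 over the 3). In knockout replicate 2 there were 62.4. Reg3b was at 55.5, 54.6 and 61.3 reads per 100 Reg1 reads in the former 3 and at 313 in knockout replicate 2.

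The ratio of Reg2 to Reg1 was instead lower in both knockout-labelled libraries. There were 37.8 and 28.8 Reg2 reads per 100 Reg1 reads in controls and 11.7 and 13.9 in knockout replicates 1 and 2. Reg3a against Reg3b behaved alike, at 11.6 and 7.13 reads per 100 in controls and 2.48 and 3.27 in the knockout-labelled libraries. Both ratios were lower in both knockout-labelled libraries than in either control, including knockout replicate 2, where Reg3a itself was near control replicate 2. Over the 4 libraries, both ratios also ran in the order of the summed acinar enzymes given below. Whether they follow the label or the acinar RNA of a library was not tested.

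**Figure D4:**
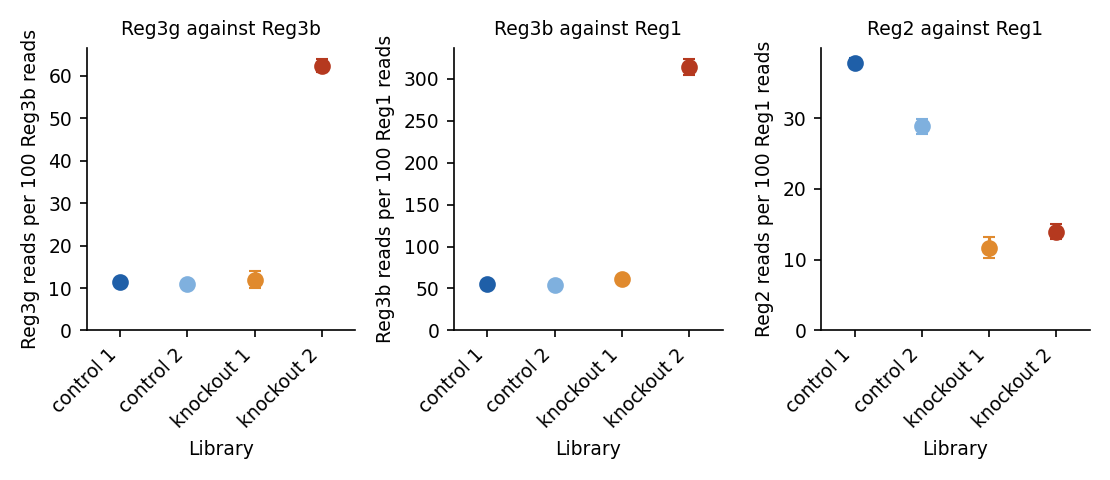
Reads of one Reg gene per 100 reads of another within each library, with exact 95% counting intervals (bars), for Reg3g against Reg3b, Reg3b against Reg1 and Reg2 against Reg1. Knockout replicate 2 stands alone in the left and middle panels (62.4 and 313), and both knockout libraries are below both controls in the right panel.

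Between the knockout-labelled libraries, every member was higher in replicate 2. The ratio in CPM was 60.8 for Reg3g (95% counting interval 52.3 to 71.1), 15.2 for Reg3a, 11.6 for Reg3b, 4.52 for Reg3d, 2.69 for Reg2 and 2.26 for Reg1. These ratios compare 2 libraries, not conditions. In cluster order from Reg3b to Reg3g they did not change steadily, since Reg3d, between Reg3b and Reg3a, had a smaller ratio than either. That of Reg3g was larger than in 99.9% of tested genes, and that of Reg1 larger than in 96.6%.

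Between the controls the members moved more evenly, with replicate 1 from 3.44 times (Reg1) to 6.33 times (Reg3d) above replicate 2 for all 6 cluster members. Reg3b (3.496 times) and Reg3g (3.68 times) differed about as much as Reg1. The share of tested genes with a smaller ratio ran from 99.2% for Reg1 to 99.7% for Reg3d.

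As a sum, the acinar enzymes of the same libraries followed the order seen for Reg1 and Reg2. Zg16, Spink1 and Ctrc instead were higher in knockout replicate 2 than in control replicate 2. Zg16 was at 71.4 CPM in the former and 13.6 CPM in the latter. The 25 enzymes and granule proteins summed to 19904 and 3943 CPM in controls and to 295 and 1073 CPM in knockout replicates 1 and 2. The median log2 fold change of the 24 tested was −4.69, against −0.0018 over all genes tested. Of these 24, 13 fell and 0 rose by edgeR, where 9.95% of all tested genes fell. The number that fell changed with the library left out and was smallest without control replicate 1. Amy2a5, which was not tested with all libraries, had 67 and 6 counts in controls and 0 in both knockout-labelled libraries. It entered some of those fits only through its control counts, so its direction there was set by the filter. Ctrb1, a chymotrypsinogen, and Pnliprp1, a lipase-related protein, were the most abundant of the acinar list. Ctrb1 was at 3874 and 1218 CPM in controls and 129.5 and 368 CPM in the knockout-labelled libraries. Set against these enzymes, Reg1 and Reg2 had 12.2 and 16.8 reads per 100 enzyme reads in controls and 32.1 and 20.3 in knockout replicates 1 and 2. The enzyme sum thus differed more between the groups than the Reg pair did.

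Knockout replicate 2, where Reg3g and Reg4 were highest and Reg3b second highest, was also highest for the intestinal lists. The wide gap between controls in Reg3b and Reg3g was not seen in the enterocyte sum, which in controls was mostly the gene Anpep described below. The 25 enterocyte genes summed to 323, 285 and 188 CPM in control replicates 1 and 2 and knockout replicate 1, and to 1962 CPM in knockout replicate 2. Anpep, an aminopeptidase that other cells also express, and Mgam, the brush border maltase-glucoamylase, were the most abundant of the list by mean CPM over the 4 libraries. Anpep was at 245 and 191 CPM in controls and at 126 and 332 CPM in knockout replicates 1 and 2. It thus made up most of the sum in every library but knockout replicate 2, and the sum says little on intestinal RNA there. Mgam was at 6.60 and 5.86 CPM in controls and at 2.51 and 189 CPM in the knockout-labelled libraries. Of the 12 enterocyte genes that passed the filter, edgeR and limma-voom called 0, DESeq2 called 2 higher and 2 had an unadjusted p under 0.05. Without knockout replicate 1, all 25 passed the filter, the added ones only through their counts in knockout replicate 2. Their direction in that fit was thus set by the filter, and calls from it are not counted here.

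Genes of goblet, Paneth and enteroendocrine cells, the intestinal cells that secrete mucus, antimicrobial peptides and hormones, were also highest in knockout replicate 2 in 14 of 18 cases. They summed to 220.2, 166 and 119 CPM in control replicates 1 and 2 and knockout replicate 1, and to 548 CPM in knockout replicate 2. The Paneth genes Ang4, Defa17, Defa24 and Defa30 and the hormone gene Gip had no count in the other 3 libraries. Lyz1, the Paneth lysozyme, and the matrilysin gene Mmp7 were the most abundant of the list by the same mean. Mmp7 was at 180 and 119 CPM in controls and 31.2 and 41.3 CPM in knockout replicates 1 and 2, and Lyz1 at 25.7, 19.6, 82.5 and 160 CPM. Together they made up most of the sum in every library but knockout replicate 2. In knockout replicate 1, Lyz1 was thus present without any count of Ang4 or the Defa genes. By edgeR Lyz1 rose, Mmp7 and Neurod1, an endocrine transcription factor, fell, and 8 of 11 did not pass. Without knockout replicate 1, all 18 passed the filter, the added ones only through knockout replicate 2, so calls from that fit are not counted either. The part of intestinal RNA in the Reg3b, Reg3g and Reg4 values of knockout replicate 2 was not tested.

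**Figure D5:**
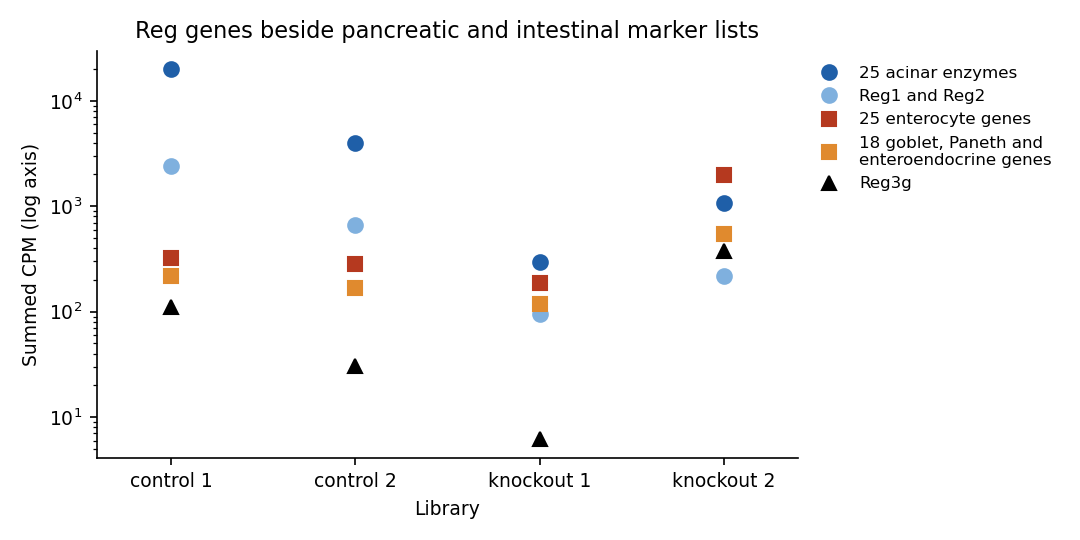
Summed CPM (log axis) of 25 acinar genes, of Reg1 and Reg2, of 25 enterocyte genes and of 18 goblet, Paneth and enteroendocrine genes, with CPM of Reg3g, in each library (1 point per list and library). Reg1 and Reg2 follow the acinar genes, both lowest in knockout replicate 1 among their own 4 values, while the intestinal lists and Reg3g are highest in knockout replicate 2.

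Other cell types differed between the groups as well, in counts to be read against the 9.95% of all tested genes that fell and the 12.1% that rose. Duct genes fell in 11 of 15 cases (edgeR; sums 4455 and 3593 CPM in controls, 1057 and 1226 CPM in the knockout-labelled libraries), islet genes in 6 of 11, macrophage genes in 7 of 10 and fibroblast genes in 6 of 8. Lymphocyte genes rose in 12 of 12 cases and adipocyte genes in 7 of 8. The islet and macrophage counts changed with the library left out. They were smallest without control replicate 1, as was the share of all tested genes that fell. The part of these cell types in the Reg values was not tested.

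By the distance between log2 CPM profiles over the 4 libraries, several members had acinar genes as their nearest match. Nearest to Reg1 were Mat1a (distance 0.25), Cabp2 (0.31) and Ptf1a (0.37), the last an acinar transcription factor. Cabp2 and Ptf1a had 6 and 3 counts in knockout replicate 1, so their distances rest on few reads there. Nearest to Reg2 were Pnliprp1 (0.17), Cpa1 (0.35) and Cuzd1 (0.37), all of acinar cells. Reg3d was nearest to Try5 (0.40), Rnase1 (0.46) and Clps (0.48), which encode a trypsinogen, a ribonuclease and the colipase of pancreatic juice. Reg3a was nearest to Spink1 (0.61), a trypsin inhibitor, with Gm2663 (1.21) and Try5 (1.23) farther off.

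Spink1 had the uneven pattern of Reg3a, at 72.1 and 9.83 CPM in controls and 0.716 and 17.4 CPM in knockout replicates 1 and 2. The nearest genes to Reg3g were farther off than those of any other tested member. Nearest to Reg3b were Mmp10 (0.69), Sncb (0.85) and Gria1 (0.96), and nearest to Reg3g were Sncb (1.46), Sult2b1 (1.55) and Celf6 (1.65). Sncb, Sult2b1 and Celf6 had only 2, 4 and 2 counts in knockout replicate 1. Among members, Reg2 and Reg3d were closest to each other (0.75) and Reg2 and Reg3g farthest apart (5.11).

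The cytokines, receptors and signalling genes known to act upstream of Reg3 genes changed in part, in shares to be read against the 22.1% of all tested genes that passed. Of 9 tested inducing cytokines, Il1b, the inflammatory interleukin 1 beta, rose (1.10 ± 0.25 SE, edgeR adjusted p = 0.0384), Lif, an interleukin 6 family cytokine, fell (−0.95 ± 0.22 SE, edgeR adjusted p = 0.0391), and 7 did not pass (median 0.69). The shares called were thus close to that of all genes for the cytokines and, at 3 of 12, for the receptors below. Il22 itself did not pass the filter on low counts, with 0 counts in either control, 10 in knockout replicate 1 and 60 in knockout replicate 2. Il6 was at 1.91 and 1.88 CPM in controls, 6.20 CPM in knockout replicate 1 and 1.20 CPM in knockout replicate 2. Knockout replicate 2 thus had more Il22 counts and a lower Il6 level than knockout replicate 1.

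Of 12 tested cytokine receptors 3 rose and 0 fell (median −0.02). They were Il22ra2, a soluble receptor that binds interleukin 22, Il17ra, a receptor of interleukin 17, and Lifr, the receptor of Lif. Il22ra2 was near the floor in controls, with 4 and 0 counts, and had 543 and 711 counts in knockout replicates 1 and 2. It passed the low-count filter only through the knockout-labelled libraries. Its direction was thus set by the filter, and its call is no test. Il22ra1, the signalling receptor of interleukin 22, was at 3.59 and 3.89 CPM in controls and 2.54 and 2.94 CPM in the knockout-labelled libraries (edgeR adjusted p = 0.2898). DESeq2 called 4 receptors higher and 1 lower. Of 11 tested genes of JAK-STAT3 signalling and its feedback, 4 rose and 0 fell (median 0.29), among them Socs3, the feedback inhibitor induced by STAT3 (1.06 ± 0.16 SE, edgeR adjusted p = 0.0147), the kinase gene Jak1 and Socs1. Stat3 itself was at 279 and 333 CPM in controls and 312 and 308 CPM in the knockout-labelled libraries.

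Other targets of STAT3 in epithelium and acute-phase genes rose in 5 of 14 cases and fell in 1 (median 0.64). Lrg1, a leucine-rich glycoprotein (0.86 ± 0.10 SE), Pim1, a kinase (0.84 ± 0.12 SE), and Bcl3, a partner of NF-kB (0.73 ± 0.10 SE), rose with edgeR adjusted p of 0.00821, 0.0114 and 0.0114. Lcn2, the antibacterial lipocalin, fell (−1.53 ± 0.26 SE, edgeR adjusted p = 0.0188), from 308 and 191 CPM in controls to 76.6 and 95.6 CPM in the knockout-labelled libraries. Unlike Reg3b and Reg3g, Lcn2 had similar values in both knockout-labelled libraries. Fut2, a fucosyltransferase of the gut surface, was at 3.22 and 21.3 CPM in knockout replicates 1 and 2 and at 5.87 and 5.69 CPM in controls, and did not pass.

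Of the 3 genes proposed as Reg receptors or partners, Extl3, the receptor proposed for Reg proteins, did not pass (−0.10, edgeR adjusted p = 0.731). Cd44, a hyaluronan receptor, and Egfr, the epidermal growth factor receptor, fell by 0.59 and 0.77 on the log2 scale (adjusted p from edgeR of 0.02696 and 0.0495). The called genes of the JAK-STAT3 and receptor lists also changed in number with the library left out. They were fewest without control replicate 1, as were the calls over all genes. Of the 14 called genes named from these upstream and partner lists, Il22ra2 is left aside here, since its direction was set by the filter. Most of the other calls depended on which library was left out. Lif, Socs1 and Egfr were lost when knockout replicate 2 or either control was left out, and Cd44 when any of the 4 libraries was. Lifr was lost without control replicate 1 or either library labelled knockout. Il1b, Il17ra, Jak1, Bcl3 and Lcn2 were lost only without control replicate 1.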

How the data were processed

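RNA of 4 mouse pancreas libraries was measured, and the titles of the samples gave their groups and replicate numbers. The authors deposited raw counts of reads for each gene symbol, made with Trim Galore 0.6.6, STAR 2.7.6a and featureCounts 2.0.1 on GRCm38, per the submitters' processing notes. The gene annotation, the use of strand and the handling of multi-mapping reads are not stated there. From these counts, edgeR 4.0.16 (R 4.3.3) was run over all genes: filterByExpr, TMM scaling, the quasi-likelihood F test on group alone, and p-values adjusted by Benjamini-Hochberg with a threshold of 0.05. The fit was run on simulated data whose libraries all shared a common trend of spread, with none set apart. That run does not cover genes that differ as widely within a group as the Reg genes do. SE was obtained from the log2 fold change and the F statistic (their ratio, with F under a square root). CPM is relative to the TMM-scaled sum of counts over tested genes.

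The members, lists and tests were chosen with earlier results of these data known. Named genes are the 7 members, Psmd14, the 3 tested genes of at least 1 CPM with the smallest Euclidean distance of centred log2 CPM (prior count 2) to each tested member, up to 3 called genes per pathway list and direction, genes within 500 kb, and the 2 most abundant genes of the acinar and intestinal lists (other cell type lists are given as counts). Others (Il22, Il6, Il22ra1, Stat3, Fut2, Extl3, Neurod1 and genes counted in 1 library only) were named after their values were seen. Intervals from counts are exact binomial intervals at 95% and cover counting error only. Gene positions are from GENCODE M21, sequences from RefSeq (GRCm38.p6, 7 of 7 members matched), aligned with Biopython 1.88. Alternatives were other scalings, filters and tests (DESeq2 1.42.0, limma-voom 3.58.1), the replicate number as a block, and each library left out.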

Additional observations from a re-analysis of the deposited data

How the results depend on the processing

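The 6 cluster members had at least 22 counts in every library, whereas Reg4 had at most 77. Reg1 and Reg2 kept their negative sign under all 11 alternatives, and Reg1 was not called with a filter of 1 CPM on average (−3.03, adjusted p = 0.0504), with the replicate block (−2.90, 0.06099) or without control replicate 1. Reg2 was not called without control replicate 1 only. With the 1 CPM filter, and with the replicate block, 1 member was called in place of 2. DESeq2 also called Reg3d (−4.02, adjusted p = 0.0218). Reg3g changed sign with limma-voom (−0.25), with the replicate block (−0.19) and without knockout replicate 2 (−3.53), and Reg3b without control replicate 1 (0.23). Leaving out each library in turn, the called members numbered 0 to 6 and all called genes 1126 (without control replicate 1) to 4034. The log2 fold changes then ran from −3.75 to −1.89 for Reg1, −5.36 to −3.01 for Reg2, −5.68 to −0.92 for Reg3a, −3.60 to 0.23 for Reg3b, −5.48 to −2.15 for Reg3d and −3.53 to 2.65 for Reg3g. The log2 ratio of the summed Reg1 and Reg2 ran from −4.03 to −2.08 and that of Reg3b, Reg3g and Reg4 from −3.59 to 0.74. Deviations of same-numbered replicates were hardly related (r = 0.03 across 19134 genes, which are not independent), and the labels do not say that the number marks a pair; the block gave 3392 called genes against 4224. The cause of these changes was not tested.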
